A study of Homo sapiens with 6 samples.

Results

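The genes described here are 10 AP-1 and immediate early genes, out of 18404 genes with a probe set of their own on the array: the Fos family (FOS, FOSB, FOSL1, FOSL2), the Jun family (JUN, JUNB, JUND) and EGR1, IER2 and IER3. They were chosen by symbol from the platform annotation, 1 probe set each, and all 10 were measured. Expression was profiled in MDA-MB-231, an established human line derived from a triple-negative breast cancer. In the fructose group, 3 cultures were kept in DMEM with 10 mM fructose, and in the glucose group 3 cultures were kept in DMEM with 25 mM glucose. Every culture was passaged in its medium for 25 days and harvested at about 70% confluency, about 24 hours after fresh medium. The 3 replicates of a sugar are labelled as biological replicates of the same line, and no group carries a genetic change. The sugar and its concentration differ together, so their parts in a difference cannot be told apart.

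AP-1 is a dimer of basic leucine zipper proteins. Jun proteins pair with each other or with Fos proteins, whereas Fos proteins need a partner such as Jun to bind DNA, and the dimers recognise short TGA-containing elements. FOS, FOSB, JUN, JUNB, EGR1, IER2 and IER3 are textbook immediate early genes. Their transcripts appear within minutes of a growth factor or stress signal, without new protein synthesis, and are short-lived. FOSL1, which encodes FRA-1, is induced later and more durably, and FRA-1 is known for its part in the invasive behaviour of mesenchymal breast cancer cells, this line among them. The arrays here cover a single harvest time, and no earlier time was measured.

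The proximal parts of 4 promoters are shown because they hold short elements of the kinds that cyclic AMP, stress or growth factor signals are known to act on. They are the 150 bases before the RefSeq start site, from GRCh38.p14, 5′ to 3′ on the strand of the gene, at chr14:75278678-75278827 (plus strand) for FOS, chr1:58784048-58784197 (minus) for JUN, chr19:12791336-12791485 (plus) for JUNB and chr5:138465329-138465478 (plus) for EGR1. Capitals mark TGACG, the core of a cyclic AMP response element, on either strand (CGTCA where it lies on the other one), the AP-1-like element TGACATCA, and the CArG box, the site of the serum response factor SRF.
FOS: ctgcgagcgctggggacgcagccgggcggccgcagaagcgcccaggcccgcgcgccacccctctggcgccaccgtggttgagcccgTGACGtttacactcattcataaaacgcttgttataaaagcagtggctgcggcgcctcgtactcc
JUN: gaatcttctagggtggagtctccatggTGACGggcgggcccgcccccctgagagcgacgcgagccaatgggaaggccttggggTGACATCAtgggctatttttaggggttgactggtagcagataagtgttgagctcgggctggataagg
JUNB: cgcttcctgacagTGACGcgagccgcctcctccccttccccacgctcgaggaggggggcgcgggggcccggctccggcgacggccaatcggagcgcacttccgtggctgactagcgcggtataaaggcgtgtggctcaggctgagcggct
EGR1: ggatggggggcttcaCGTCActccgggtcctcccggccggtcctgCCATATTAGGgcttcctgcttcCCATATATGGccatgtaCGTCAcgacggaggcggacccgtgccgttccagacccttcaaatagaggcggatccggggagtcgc

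The promoter table held 8 of the 10 genes, with FOSL1 and IER3 not among them. Over the 250 bases before the start, searched on both strands, TGACG was found in all 8 of these promoters, against 21.2% of the 35114 promoters in the table and 30.8% of the promoters of genes above the median level on these arrays. In FOS it starts 64 bases before the start site, in FOSB 60, in JUN 123 and in JUNB 137. The palindrome TGACGTCA, which contains TGACG on both strands, was found in JUND alone among the 8 (1.65% of all promoters), and TGACATCA in JUN alone (2.38%), 67 bases before its start. The CArG box was found in EGR1 alone (1.16% of all promoters), starting 105 and 83 bases before the start site. TGANTCA, the classical AP-1 element, was in 0 of the 8 windows and in 6.57% of all promoters. These matches describe the letters in the windows and say nothing of binding in these cells.

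Levels are given as RMA intensities on a linear scale, where a probe set's brightness also depends on its probes, so no order of transcript levels between genes is drawn. Where a probe set is placed among all tested probe sets, this is a rough guide to its brightness alone. The intensities of the 28230 tested probe sets ran from 2.15 to 7938, with array medians of 31.5 to 33.5. The line's markers VIM, CD44, CAV1, AXL and MSN were bright, with fructose means of 1589 to 2876 and glucose means of 1537 to 2849, while SPARC was dim, with 20.2 in fructose and 19.3 in glucose. The luminal markers ESR1, PGR and CDH1 were below the median probe set, and so were all 5 measured leukocyte markers and all 6 fibroblast markers. Of the 8 luminal or epithelial markers, 2 (GATA3 and TFF1) were above the median. The summed intensity of that list was 186 to 209 in fructose and 207 to 215 in glucose, of the leukocyte list 80.3 to 81.0 in fructose and 78.1 to 87.3 in glucose, and of the fibroblast list 77.7 to 79.3 in fructose and 77.1 to 82.9 in glucose. Their part in the results was not tested. By limma, with Benjamini-Hochberg adjustment over all 28230 probe sets, 1 probe set passed an adjusted p of 0.05, TXNIP, which measured 107, 122 and 136 in the fructose cultures, against 1639, 1781 and 1656 in the glucose cultures.

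Differences between the sugars were small in all 10 genes. FOSB, FOSL1 and IER3 stood higher on all 3 fructose arrays than on any glucose array, by 15.4% to 18.5% on average, and JUN stood 1.15-fold lower on average, with all 3 fructose arrays below the glucose arrays. None of the 10 genes passed the limma test, where 0.00354% of all tested probe sets did, and the smallest adjusted p among them was 0.26 (FOSL1). RNA came from whole cultures, so fewer expressing cells and less RNA per cell cannot be told apart. Arrays without overlap were found for 20.2% of all tested probe sets (11.4% higher and 8.81% lower in fructose), and for 28.7% of those brighter than the median, to which all 10 genes belong. The same 4 genes had a limma unadjusted p under 0.05, against 13.1% of all tested probe sets (7.65% higher and 5.43% lower) and 17.4% of the brighter ones. With an intensity trend and robust variances in limma, 1.68% of all probe sets passed the adjusted threshold, and 2.3% when bright probe sets were tested alone, but again none of the 10 genes, whose smallest adjusted p values were then 0.067 and 0.087. FOS, FOSL2, JUNB, JUND, EGR1 and IER2 overlapped between the sugars. The median difference of the 10 genes (log2) was 0.02, equal to the 0.02 of all tested probe sets, with 6 higher and 4 lower in fructose.

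**Figure D1:**
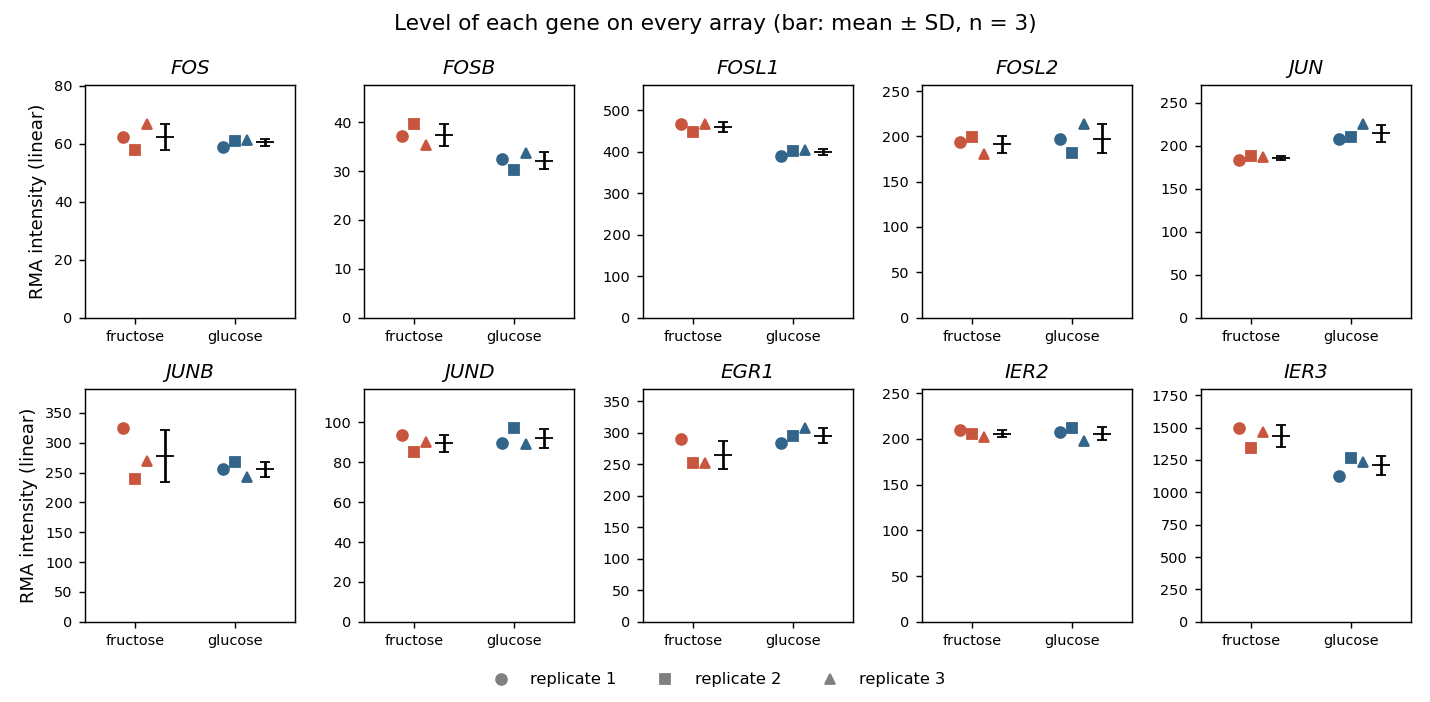
RMA intensity (linear, each axis from 0) of the 10 genes on the 3 fructose arrays (red) and the 3 glucose arrays (blue), 1 symbol per replicate, with the mean and SD as a black bar (n = 3). FOSB, FOSL1 and IER3 lie higher on all fructose arrays and JUN lies lower, while the other 6 genes overlap.

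FOSL1 had the smallest unadjusted p of the 10 genes. It measured 466, 446 and 467 in the fructose cultures, against 390, 401 and 405 in the glucose cultures. Every fructose array was above every glucose array, and the arrays of each sugar lay close together, with means of 459.8 ± 11.7 in fructose and 398.5 ± 7.59 in glucose (SD, n = 3 each). The log2 difference was 0.21 (SE 0.06, 95% interval 0.06 to 0.36, limma unadjusted p = 0.014 and adjusted p = 0.26). Its mean level exceeded that of 92.1% of tested probe sets.

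FOSB encodes a Fos protein with a transactivation domain like that of FOS. It lay near the median probe set, above 51.4% of them, and had intensities of 37.1, 39.7 and 35.3 in the fructose cultures, against 32.5, 30.2 and 33.6 in the glucose cultures. Here fructose replicate 2 was the highest of all arrays and the gap between the sugars was narrow. The log2 difference was 0.22 (SE 0.08, 95% interval 0.03 to 0.40, limma adjusted p = 0.32), and the arrays overlapped after each was centred on its median and after quantile normalization was repeated.

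FOS, the founding member of the family, had intensities of 62.2, 57.9 and 66.9 in the fructose cultures, against 59.0, 61.0 and 61.3 in the glucose cultures. The fructose arrays lay on both sides of the glucose arrays. Its difference was 0.04 (95% interval -0.14 to 0.22, limma adjusted p = 0.86), and -0.01 without fructose replicate 3. FOSL2, which encodes FRA-2, had 194, 199 and 181 in the fructose cultures, against 197, 182 and 214 in the glucose cultures. The ranges of FOSL2 overlapped over most of their length, with a difference of -0.05 (95% interval -0.24 to 0.15, limma adjusted p = 0.86). Without glucose replicate 3 the difference was 0.01.

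JUN encodes c-Jun, the strongest activator of the Jun family and the main substrate of the JNK kinases. Its intensity was 183, 188 and 186 in the fructose cultures, against 207, 210 and 225 in the glucose cultures. The 3 fructose cultures nearly coincided and all lay below the glucose cultures, with means of 185.6 ± 2.38 in fructose and 214.0 ± 9.92 in glucose (SD, n = 3 each). The log2 difference was -0.20 (SE 0.07, 95% interval -0.36 to -0.05, limma unadjusted p = 0.018 and adjusted p = 0.29).

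JUNB, a Jun protein that often opposes c-Jun at shared sites, had 325, 239 and 270 in the fructose cultures, against 256, 268 and 242 in the glucose cultures. Fructose replicate 1 was the highest array and fructose replicate 2 the lowest, so the fructose cultures spanned all the glucose cultures. The difference was 0.11 (95% interval -0.17 to 0.39, limma adjusted p = 0.74) and -0.01 without fructose replicate 1. JUND, the Jun protein that is made most steadily in resting cells, had 93.5, 84.9 and 90.3 in the fructose cultures, against 89.6, 97.2 and 88.9 in the glucose cultures. The groups of JUND were intermixed, with a difference of -0.04 (95% interval -0.21 to 0.14, limma adjusted p = 0.87) that was 0.0004 without fructose replicate 2.

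EGR1, a zinc finger factor induced through SRF at sites such as the CArG boxes printed above, had 291, 252 and 252 in the fructose cultures, against 284, 295 and 308 in the glucose cultures. Fructose replicates 2 and 3 lay below all glucose arrays, and fructose replicate 1 lay among them. The difference was -0.16 (SE 0.08, 95% interval -0.36 to 0.03, limma adjusted p = 0.46), and -0.23 without fructose replicate 1. IER2, a nuclear immediate early protein, had 210, 205 and 202 in the fructose cultures, against 207, 212 and 198 in the glucose cultures. All 6 arrays of IER2 lay within 1.07-fold, and its difference was 0.0017 (95% interval -0.15 to 0.16, limma adjusted p = 0.99). IER3, which encodes the survival-linked protein IEX-1 and is also an NF-kB target, had 1498, 1340 and 1463 in the fructose cultures, against 1127, 1268 and 1235 in the glucose cultures. Each fructose array of IER3 was above each glucose array, fructose replicate 2 by the least, and the difference was the largest of the 10 genes at 0.25 (SE 0.08, 95% interval 0.06 to 0.43, limma adjusted p = 0.29).

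**Figure D2:**
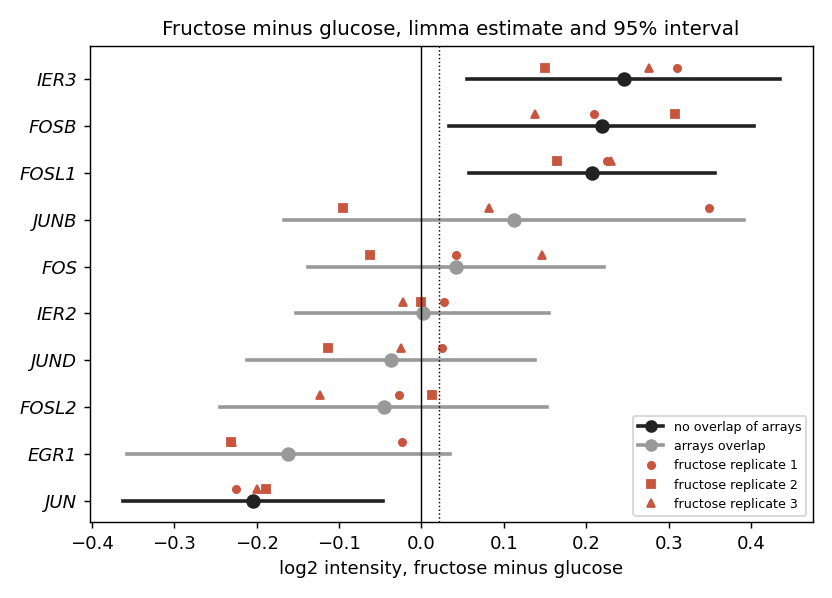
Log2 intensity in fructose minus glucose for the 10 genes (horizontal axis), as the limma estimate (circle) with its 95% interval (line), dark where the arrays of the sugars did not overlap. Red symbols above each line give each fructose array minus the glucose mean, and the dotted line marks the median of all tested probe sets, 0.02. The intervals of FOSB, FOSL1, IER3 and JUN exclude 0 before adjustment.

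Differences between subunits on the same array were compared to ask whether the RNAs of subunits of the same family shifted unequally between the sugars. No Fos gene was compared with a Jun gene in this way. Each was compared by a two-sided exact permutation test, in which 3 arrays against 3 cannot give a p below 0.10, and 4 pairs were compared. FOSL1 minus FOS (log2) was 2.90, 2.95 and 2.80 in the fructose cultures, against 2.72, 2.72 and 2.72 in the glucose cultures, so the groups did not overlap, and the shift was 0.16 (exact p = 0.10, adjusted p = 0.20). FOSL1 minus FOSL2 was 1.27, 1.17 and 1.37 in fructose and 0.99, 1.14 and 0.92 in glucose, again without overlap and with a shift of 0.25 (exact p = 0.10, adjusted p = 0.20). JUNB minus JUN was 0.83, 0.35 and 0.54 in fructose and 0.31, 0.35 and 0.10 in glucose, where fructose replicate 2 lay among the glucose arrays (shift 0.32, exact p = 0.20, adjusted p = 0.20). JUN minus JUND was 0.97, 1.14 and 1.04 in fructose and 1.21, 1.11 and 1.34 in glucose (shift -0.17, exact p = 0.20, adjusted p = 0.20). No pair passed, and only the shifts, not the absolute values of these differences, can be read, because the probes differ.

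Between cultures of the same sugar, 7 of the 10 genes varied less than the median probe set among those brighter than the median. That reference is rough, because the median spread fell with level, from 0.14 at log2 5.20 to 0.05 at log2 10.04. Against probe sets of their own level, IER3, FOSL2, EGR1 and JUNB varied more than the median and the other genes less. The pooled SD between cultures of the same sugar (log2) was 0.03 for FOSL1 and 0.04 for IER2, above that of just 2.74% and 5.07% of tested probe sets, and 0.05 for JUN. JUNB had the largest spread of the 10 genes, 0.17, above that of 72.3% of probe sets. The median over the 10 genes was 0.08, against 0.12 over all tested probe sets and 0.09 over those brighter than the median. Fructose replicate 2 was the lowest of the fructose arrays for 6 of the 10 genes, against 38.5% of all tested probe sets, and the nearest to the glucose mean for 5 of 10, against 36.1%. For IER3 and FOSL1 it was the lowest fructose array, whereas for FOSB, FOSL2 and JUN it was the highest.

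**Figure D3:**
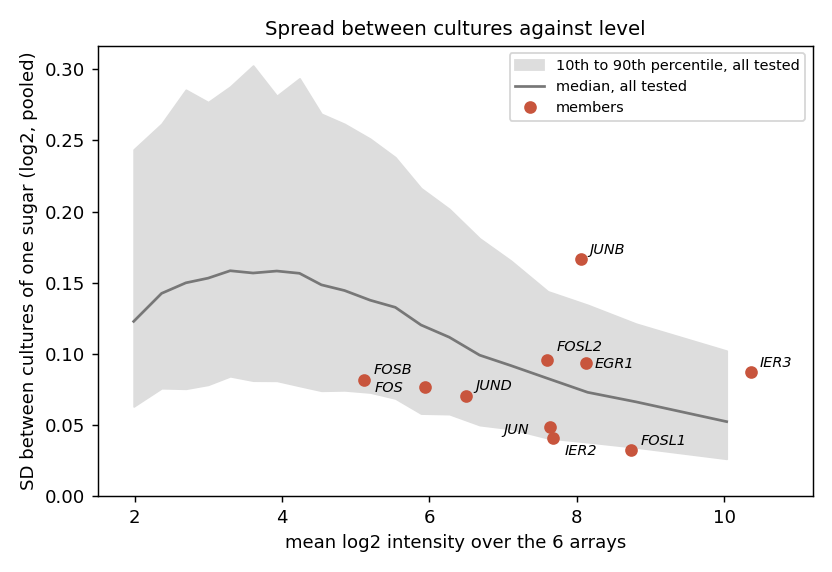
Pooled SD between cultures of one sugar (log2, vertical axis) against mean log2 intensity over the 6 arrays, for the 10 genes (red) and for all tested probe sets in 20 bins of brightness (line: median, grey: 10th to 90th percentile). JUNB lies above the grey band, FOSL1 lies just below it, and IER2 lies at its lower edge.

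Other basic leucine zipper proteins that can pair with Fos or Jun, or compete with them, stood on balance higher in fructose. Of 13 listed partners 11 were measured, 8 higher and 3 lower, where 56.2% of all tested probe sets were higher, with a median of 0.15 beside 0.02 over all tested probe sets. None passed the adjusted threshold. Arrays did not overlap for 6 of the 11 (54.5%), of which 5 were higher, against 20.2% of all tested probe sets. Among the 8 partners brighter than the median the count was 5, against 28.7% of the brighter probe sets. This list and the lists below were chosen with earlier results of these data known. Their counts and shares are therefore descriptions, and enrichment was not tested. MAFG, a small Maf protein, had 416, 411 and 424 in the fructose cultures, against 333, 333 and 360 in the glucose cultures (0.29, SE 0.07, limma adjusted p = 0.19), and its other 2 probe sets were higher too, by 0.25 and 0.21. ATF4, the effector of the integrated stress response, was higher by 0.28 (limma adjusted p = 0.21) and its other probe set by 0.18.

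JDP2, a repressor that dimerises with c-Jun, had 52.5, 36.8 and 53.9 in fructose and 36.1, 31.8 and 30.8 in glucose, with a difference of 0.52 (SE 0.16, limma adjusted p = 0.26). Its fructose replicate 2 lay just above the glucose arrays. BATF, known best from lymphocytes, was near the median probe set and was higher by 0.31 (limma adjusted p = 0.27). MAFF (0.18) and BATF3 (-0.21), chosen after their values were seen, were the remaining partners without overlap. ATF3, a stress-induced partner of Jun and itself an immediate early gene, was 36.0, 28.0 and 35.1 in fructose and 32.7, 41.7 and 35.2 in glucose, so the groups overlapped (-0.15, 95% interval -0.46 to 0.16, limma adjusted p = 0.69).

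Other immediate early genes were more often higher than lower in fructose: 18 of 23 measured were higher and 5 lower, where 56.2% of all tested probe sets were higher. Their median was 0.11, and none passed the adjusted threshold. Arrays did not overlap for 8 that were higher and 1 that was lower (39.1%), against 20.2% of all tested probe sets. Among the 21 genes of this list brighter than the median the count was 9, against 28.7% of the brighter probe sets. Leaving out fructose replicate 1 gave a median of 0.07, and leaving out fructose replicate 2 gave 0.16. DUSP1, the phosphatase that switches off MAP kinases, had 326, 215 and 325 in the fructose cultures, against 205, 210 and 213 in the glucose cultures. Fructose replicates 1 and 3 of DUSP1 were well above the glucose arrays, while replicate 2 was within a few units of them (0.44, SE 0.16, limma adjusted p = 0.33). MYC, an immediate early oncogene, was higher by 0.39 (limma adjusted p = 0.26), and likewise less so on fructose replicate 2, by 0.14 against 0.51 and 0.52 on replicates 1 and 3.

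SGK1, a kinase of the AKT type induced by serum and steroids, was higher by 0.28 (limma adjusted p = 0.24). KLF10 was the single gene of this list that stood lower without overlap, with 126, 117 and 113 in fructose and 142, 158 and 149 in glucose (-0.33, SE 0.08, limma adjusted p = 0.19). EGR3, EGR4 and NR4A1, chosen after their values were seen as relatives of EGR1 or textbook early genes, overlapped between the sugars, at -0.10, -0.02 and -0.05. Without fructose replicate 2, arrays did not overlap for 16 of the 23, where 33.3% of all tested probe sets did not. With any other array left out, the count was 9 to 12 of the 23, where 29.0% to 30.3% of all tested probe sets did not overlap. The share of brighter probe sets was not computed for these fits.

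Of the upstream kinases and factors, 20 of 28 were measured, 14 of them higher and 6 lower, where 56.2% of all tested probe sets were higher. Their median was 0.06, beside 0.02 over all tested probe sets. This list's median was 0.02 without glucose replicate 1 and 0.03 after median centring. Arrays did not overlap for 5 of the 20 (25.0%), 2 higher and 3 lower, against 20.2% of all tested probe sets and 28.7% of the brighter ones. SRF, which drives EGR1 from CArG boxes and is also known to drive FOS, had 376, 362 and 400 in the fructose cultures, against 325, 316 and 324 in the glucose cultures. Its groups did not overlap (0.24, SE 0.07, limma adjusted p = 0.24). EGR1 itself differed by -0.16 and FOS by 0.04, and a link between these differences and that of SRF was not tested. MEF2C, of a family known to act on the JUN promoter, was higher by 0.54 (SE 0.11, limma adjusted p = 0.17). CREB1, which binds TGACG elements, had 317, 355 and 313 in fructose and 370, 420 and 386 in glucose (-0.26, SE 0.08, limma adjusted p = 0.29), and MAP3K1, a kinase upstream of JNK, differed by -0.26 (limma adjusted p = 0.31). MAP2K4, a JNK kinase chosen after its values were seen, differed by -0.08 without overlap. None of the 20 passed.

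Of 34 genes reported as AP-1 targets in various cells, 30 were measured, 24 higher and 6 lower in fructose, where 56.2% of all tested probe sets were higher. Their median was 0.07, and none passed the adjusted threshold. After each array was centred on its median, 20 were higher and 10 lower with a median of 0.04, and without fructose replicate 1 the split was 19 and 11. Arrays did not overlap for 13 (10 higher and 3 lower), or 43.3%, against 20.2% of all tested probe sets. Among the 24 targets brighter than the median the count was also 13, against 28.7% of the brighter probe sets. Because the list was chosen with earlier results known, these counts and shares are a description alone. MMP1, the interstitial collagenase whose promoter is the classical AP-1 reporter, had 706, 450 and 703 in the fructose cultures, against 216, 261 and 230 in the glucose cultures. It had the largest difference of the list, 1.37 (SE 0.18, limma adjusted p = 0.13), with fructose replicate 2 between the glucose arrays and the other fructose arrays.

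PLAU, the urokinase protease, was higher by 0.33 (SE 0.08, limma adjusted p = 0.20) and CXCL8, a neutrophil chemokine, by 0.58 (SE 0.15, limma adjusted p = 0.21). S100A2, a calcium-binding protein of epithelia, had 823, 1033 and 720 in fructose and 1202, 1141 and 1124 in glucose (-0.44, SE 0.13, limma adjusted p = 0.25). ITGA6 (-0.15) and ZEB1 (-0.12), chosen after their values were seen, were the other targets that stood lower without overlap. PLAUR, the urokinase receptor, and the chromatin protein HMGA1, chosen in the same way, differed by -0.01 and 0.03.

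**Figure D4:**
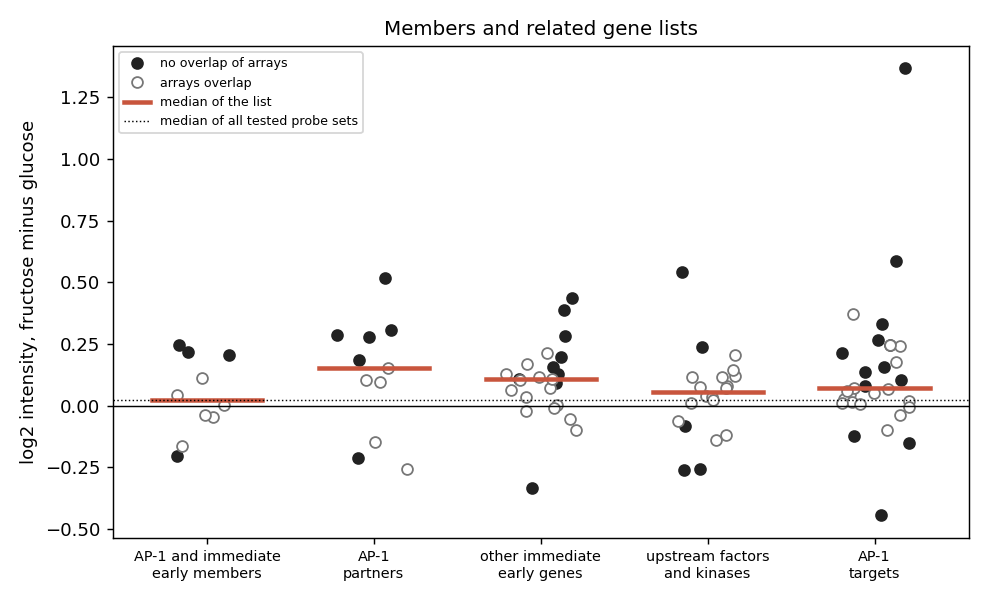
Log2 intensity in fructose minus glucose (vertical axis) for the 10 genes and for the measured genes of 4 related lists, 1 point per gene, filled where the arrays of the sugars did not overlap, with the list's median in red. The dotted line marks the median of all tested probe sets, 0.02. MMP1 at 1.37 is the highest point, and the partner list has the highest median, 0.15.

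The genes whose pattern over the 6 arrays was most like that of FOSL1, among 11058 genes brighter than the median, were ZFP36L1 (Pearson r = 0.997), STX3 (r = 0.997) and DNASE2 (r = 0.995), as a description in which the sugar difference itself is shared. ZFP36L1, which binds AU-rich messages and speeds their decay, had 1021, 985 and 1013 in the fructose cultures, against 886, 904 and 918 in the glucose cultures. STX3, a membrane fusion protein, differed by 0.62 (SE 0.09, limma adjusted p = 0.13) and DNASE2, a lysosomal nuclease, by 0.35 (SE 0.07, limma adjusted p = 0.17).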

How the data were processed

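RNA from 3 fructose and 3 glucose cultures was hybridised to 1 array each. The authors deposited a single intensity for every probe set on each array; RMA is the method named, per the submitters' processing notes, and its version and any filter were not stated there. Because tested values reached 7938, they were treated as linear and converted to log2 without a pseudocount. Of 32321 rows, 4091 numbered below the first annotated probe set were regarded as controls and dropped, which left 28230. The platform annotation gave 1 symbol to 19158 of these, several to 1388 and none here to 7684, and the brightest probe set stood for a gene. Fructose minus glucose was fitted without covariates by limma 3.58.1 (lmFit, eBayes, R 4.3.3), two-sided, and p-values were adjusted by Benjamini-Hochberg across the 28230. The fit was tested on simulated data. The number of arrays limits the precision (median SE 0.095, log2).

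The members and lists were chosen with earlier results of these data known. Named were all members, the 4 genes of each list with the smallest p, MMP1, MYC, ATF3, SRF, DUSP1 and TXNIP, and the 3 genes most like the leading member. Alternatives covered the replicate number as a block, single arrays left out, quantile normalization again, median centring, brighter probe sets, a variance trend, array weights and retained controls. Promoter sequences are from RefSeq.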

Additional observations from a re-analysis of the deposited data

How the results depend on the processing

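None of the 10 genes passed an adjusted p of 0.05 under any of the 13 alternatives run, and FOSB, FOSL1, EGR1, IER3 and JUN kept their direction in all that gave them a value. Over all tested probe sets the count of calls was 1, but 325 among bright probe sets alone and 473 with an intensity trend and robust variance, where the smallest adjusted p of the 10 genes was 0.087 and 0.067. By limma with the trend, ATF4, MAFG, MEF2C, MMP1, PLAU and TIMP1 passed (adjusted p 0.026 to 0.034, TIMP1 chosen after its values were seen), and MMP1 passed among bright probe sets (0.030). With an array left out, the differences ran from -0.010 (without fructose replicate 3) to 0.094 for FOS, from -0.10 to 0.013 (without glucose replicate 3) for FOSL2, from -0.0065 (without fructose replicate 1) to 0.22 for JUNB, from -0.069 to 0.0035 (without glucose replicate 2; 0.0004 without fructose replicate 2) for JUND, and from -0.027 (without glucose replicate 3; -0.011 without fructose replicate 1) to 0.024 for IER2, so each of these turned its sign. IER2 also did so after repeated quantile normalization (-0.011) and median centring (-0.024). The shifts between subunits kept their direction in all fits that left out an array, with JUNB minus JUN at 0.19 without fructose replicate 1 and 0.43 without fructose replicate 2, and JUN minus JUND at -0.11 without glucose replicate 3. The median of the upstream list was 0.02 without glucose replicate 1 and 0.03 after median centring, that of the AP-1 targets 0.04 after median centring, and that of the other immediate early genes 0.07 without fructose replicate 1 and 0.16 without fructose replicate 2. The median of the 10 genes ran from -0.0090 to 0.048 with an array left out and was -0.0039 after centring. Genes without overlap numbered 4 to 6 with an array left out, where 29.0% to 33.3% of all probe sets did not overlap. They numbered 3 under repeated quantile normalization and under centring, where 20.4% and 17.6% of all probe sets did not overlap. With the replicate block 1 probe set was called and 0 of the 10 genes, with a smallest adjusted p of 0.45. Deviations of same-numbered arrays from the mean of their own sugar correlated at -0.026, -0.021 and -0.054. These values show no signal shared by replicate number, but they cannot tell whether the cultures were handled in pairs. Each of the 10 genes had 1 probe set, so averaging probe sets could change nothing. No depth applies to arrays, and of the 10 genes FOSB was the one near the median level.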
